A study of Mus musculus with 16 samples.

Results

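Perineuronal nets are lattices of extracellular matrix around the cell bodies and proximal dendrites of some neurons, and related loose matrix surrounds most synapses. Long hyaluronan chains form the backbone. Lecticans, a family of chondroitin sulfate proteoglycans, bind to it, link proteins fasten that bond, and tenascin-R cross-links the free ends of the lecticans. In cortex, dense nets are best known around parvalbumin-positive inhibitory neurons, while several of the components are made by astrocytes and by cells of the oligodendrocyte lineage. The 9 genes described here were chosen by name. They are the lecticans Acan (aggrecan), Bcan (brevican), Ncan (neurocan) and Vcan (versican), the link proteins Hapln1, Hapln2 and Hapln4, Tnr (tenascin-R), and Ptprz1, a receptor tyrosine phosphatase whose extracellular part is itself a chondroitin sulfate proteoglycan. All 9 were found among the 39017 gene rows of each table, and all 9 carried an adjusted p in each.

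The tissue was prelimbic cortex (PL) from mice of the inbred strain C57BL/6J. The labels list the same viral treatment for all 16 samples: AAV-IV-GFPL10, which carries a ribosomal protein fused to green fluorescent protein, in PL, and CAV-Cre, a canine adenovirus with Cre recombinase that travels back along axons, in the nucleus accumbens (NAc), basolateral amygdala (BLA) or ventral tegmental area (VTA). Immunoprecipitated polysomal RNA (IP) is therefore enriched for transcripts of PL cells whose axons reach the injected target, and Input is total RNA of the surrounding PL, those neurons included. For PL-NAc and PL-BLA there were 3 libraries of either kind, and for PL-VTA 2 of either. The sources used here do not give the age or sex of the animals or say whether libraries came from separate animals, so the p-values measure only the spread between these libraries, which may be technical.

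For each projection the authors deposited a table of IP against Input, which holds a mean of normalized read counts over all libraries of the comparison, a log2 fold change with its standard error (SE), and an adjusted p from DESeq2. Values per library were not used here. The mean counts summed to between 15437849 and 16520414 per table in the authors' deposited tables. The headers do not say which group a positive fold change favours. It was read as IP over Input because glial genes are mostly negative and excitatory neuron markers mostly positive. A fall of a glially made member is therefore fixed in direction by that reading, and the excitatory counts that follow are no separate check of it. On this reading 8 of 9 excitatory neuron markers were higher in the PL-NAc IP, 8 of 9 in the PL-BLA IP, but only 2 of 9 in the PL-VTA IP, where another 2 were lower, in the authors' deposited tables. The shares higher over all tested genes were 21.4%, 20.8% and 11.0% in the same order, and the share lower for PL-VTA was 10.5%. A gene was called where the adjusted p that the authors deposited was under 0.05.

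The lecticans and link proteins sit in the mouse genome as neighbouring pairs (GRCm38, GENCODE M21 annotation). Acan (ENSMUSG00000030607, chromosome 7, 79053483 to 79115099) lies next to Hapln3, a link protein gene outside the chosen set, with 2 bases between their annotated ends on opposite strands. Bcan (ENSMUSG00000004892, chromosome 3, 87987531 to 88000230) and Hapln2 (ENSMUSG00000004894, 88021750 to 88027583) are 21519 bases apart on the same strand. Ncan (ENSMUSG00000002341, chromosome 8, 70093085 to 70120873) and Hapln4 (ENSMUSG00000007594, 70083457 to 70090862) are 2222 bases apart on opposite strands. Vcan (ENSMUSG00000021614, chromosome 13, 89655312 to 89742509) and Hapln1 (ENSMUSG00000021613, 89539796 to 89611652) are 43659 bases apart on opposite strands. Tnr (ENSMUSG00000015829) is on chromosome 1, 159523769 to 159931729, and Ptprz1 (ENSMUSG00000068748) on chromosome 6, 22875502 to 23052916. Of the 9, only Tnr shares exon bases with another annotated gene, 443 bases or 3.44% of its exons with the antisense gene Gm38039. The library chemistry does not mark the strand, so reads from those bases cannot be told apart. Gm38039 itself had no value in the authors' deposited tables.

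Upstream sequence is shown for 3 members, Bcan and Ptprz1, which were lower in the IP of every projection, and Ncan, which was in none. Each is the 250 bases before the RefSeq transcription start (GRCm38.p6), written 5′ to 3′ on the gene's own strand. Capitals mark matches to the GC box GGGCGG, the binding motif of Sp family factors, and to the TATA box TATAAA, on either strand.
Bcan, chr3:88000357-88000606, minus strand: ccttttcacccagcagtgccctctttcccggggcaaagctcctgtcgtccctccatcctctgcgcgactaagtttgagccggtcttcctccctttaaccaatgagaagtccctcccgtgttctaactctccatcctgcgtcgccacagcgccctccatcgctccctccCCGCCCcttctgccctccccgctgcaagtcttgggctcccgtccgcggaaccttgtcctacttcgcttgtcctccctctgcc
Ptprz1, chr6:22875252-22875501, plus strand: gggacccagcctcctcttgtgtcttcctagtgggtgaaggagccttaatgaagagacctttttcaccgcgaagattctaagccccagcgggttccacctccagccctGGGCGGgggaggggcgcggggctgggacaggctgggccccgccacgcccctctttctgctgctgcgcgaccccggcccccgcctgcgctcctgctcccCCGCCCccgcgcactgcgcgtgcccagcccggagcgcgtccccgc
Ncan, chr8:70120845-70121094, minus strand: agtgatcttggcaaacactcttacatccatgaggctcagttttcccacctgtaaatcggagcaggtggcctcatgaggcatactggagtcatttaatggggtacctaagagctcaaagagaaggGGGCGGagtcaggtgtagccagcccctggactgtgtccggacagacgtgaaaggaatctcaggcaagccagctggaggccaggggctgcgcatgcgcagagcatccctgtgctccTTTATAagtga

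RefSeq upstream sequence was matched for 8 of the 9 members; Hapln4 had no entry. A GC box was present in 5 of the 8, Acan, Bcan, Ncan, Vcan and Ptprz1, and in 32.7% of all 32851 promoter windows of the same length. A TATA box was present in Ncan alone of the 8 and in 12.4% of all windows. It falls in the last 29 bases of the Ncan window, which lie in an annotated Ncan exon, so that GENCODE places the start further upstream than RefSeq does. The core motif ACAAT of SOX factors, also read on both strands, was present in Hapln1 and Hapln2 and in 27.7% of all windows. All 250 bases of the Hapln1 window and 72 of the Hapln2 window lie in annotated exons, so these are not purely upstream sequence. The motifs were chosen with the sequences in view. GC content of the windows ran from 46.8% in Tnr to 74.4% in Acan, against a median of 52.4% over all windows.

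The members differed widely in level. Levels between genes are given as normalized counts per kilobase (kb) of merged exon, from the authors' deposited means and the M21 exon lengths. Hapln4 was highest, at 603 to 795 per kb over the 3 comparisons, followed by Bcan at 321 to 486, Ncan at 132 to 161 and Hapln2 at 60.9 to 81.7. Ptprz1 at 16.5 to 22.8, Tnr at 15.2 to 17.9 and Hapln1 at 14.2 to 16.8 came next, and each of these ranges overlapped its neighbour's. Vcan at 1.14 to 1.78 and Acan at 1.63 to 2.304 were lowest and also overlapped. Acan and Vcan rested on mean normalized counts of 12.1 to 17.2 and 16.5 to 25.7 in the authors' deposited tables, against 2367 to 3121 for Hapln4. Aggrecan, the usual protein marker of dense nets, was thus 1 of the 2 members with the fewest counts.

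Separate IP and Input levels were computed from each deposited mean and fold change, with equal weight for both groups. They carry no error of their own, and if the deposited fold changes are shrunken toward 0, as those of the lowest-mean genes appear to be, the 2 levels lie too close together. In Input, Bcan at 481 to 622 per kb overlapped Hapln4 at 581 to 658. In the IP they separated, with Hapln4 at 625 to 954 and Bcan at 162 to 367. The order of the middle genes also changed: in Input, Tnr at 15.5 to 18.1 per kb was below Ptprz1 at 27.0 to 34.2 and Hapln1 at 22.7 to 25.5. In the IP, Tnr at 13.9 to 17.8 was above both, with Ptprz1 at 6.09 to 11.5 and Hapln1 at 5.69 to 8.18. These ranges run over the 3 projections, whose libraries are separate.

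**Figure D1:**
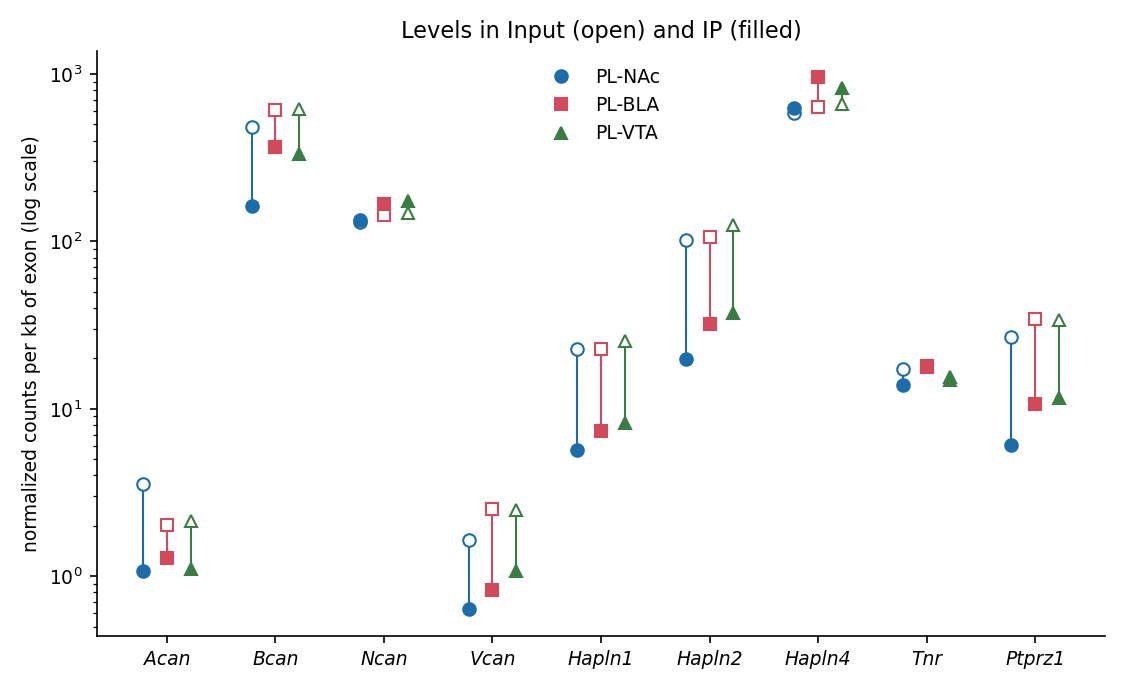
Level of each member in Input (open symbols) and IP (filled symbols), in normalized counts per kb of exon on a log axis, for the 3 projections; each line joins the 2 levels computed from one deposited mean and fold change. Hapln4 stands highest and its IP level lies above its Input level in all 3 projections, while Acan and Vcan lie at or below 3.53 per kb.

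By the same levels, the make-up of each family differed between IP and Input. Among the 4 lecticans, Bcan made up 78.1% to 80.4% of the summed level in Input and 54.3% to 68.3% in the IP. Ncan made up 19.0% to 21.1% in Input and 31.3% to 45.2% in the IP, so that in PL-NAc polysomes the 2 were closest, at 54.3% and 45.2%. Hapln4 made up 81.3% to 83.2% of the summed level of the 3 link proteins in Input and 94.8% to 96.1% in the IP. Hapln2 made up 13.8% to 15.6% of that sum in Input and 3.06% to 4.30% in the IP. These shares are a description with no test.

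Most of the members were lower in the IP than in Input in at least 1 projection, and 3 were not. Bcan, Vcan, Hapln1, Hapln2 and Ptprz1 were lower in the IP of all 3 projections, by 1.65-fold to 5.13-fold. Acan was called lower in PL-NAc only, whereas Ncan, Hapln4 and Tnr were lower in none. For PL-NAc, 6 of the 9 were lower and none higher, against 21.7% of all 17998 tested genes lower, 21.4% higher and 43.1% called in either direction, in the authors' deposited table (DESeq2). In PL-BLA 5 were lower and 2 higher, against 20.2% lower, 20.8% higher and 41.0% called either way, in the authors' deposited table. In PL-VTA 5 were lower and none higher, against 10.5%, 11.0% and 21.5%, in the authors' deposited table. No member was higher at an unadjusted p under 0.05 in PL-NAc or PL-VTA (DESeq2), so the count there was 0 on that reading too. The median log2 fold change of the 9 was -1.57 for PL-NAc, -0.72 for PL-BLA and -0.95 for PL-VTA, beside -0.03, -0.02 and 0.02 over all tested genes. In such bulk RNA, fewer cells of a type and less RNA per cell cannot be told apart.

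**Figure D2:**
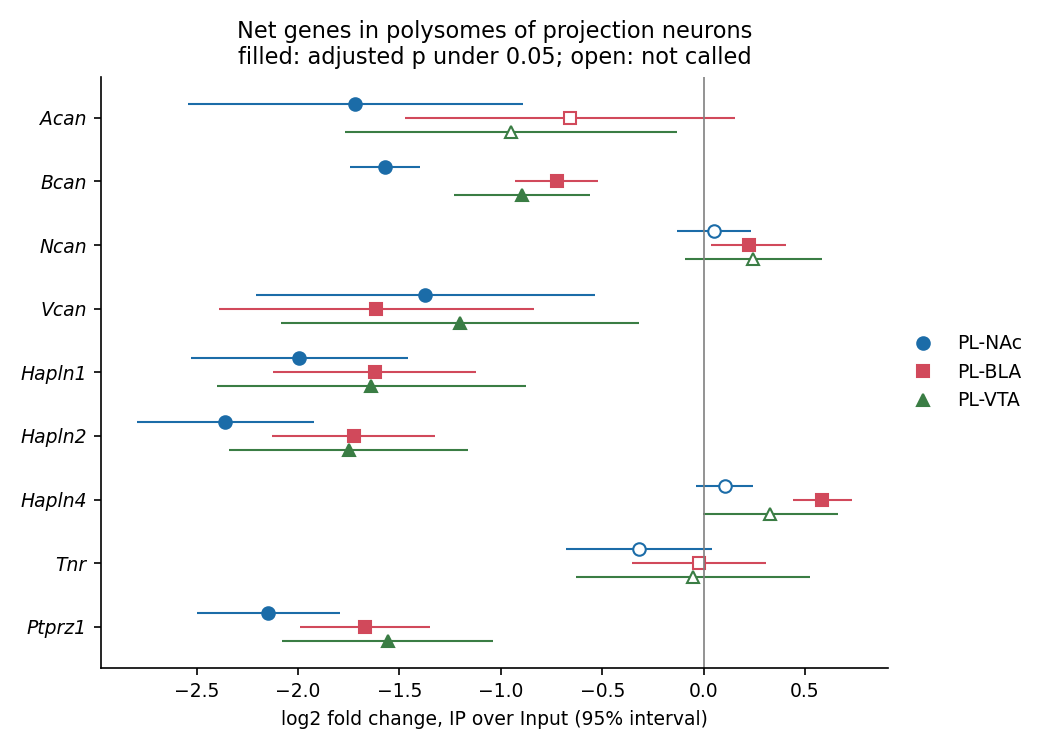
Log2 fold change of IP over Input for each member with its 95% interval, by projection; filled symbols were called at an adjusted p under 0.05 and open symbols were not. Bcan, Vcan, Hapln1, Hapln2 and Ptprz1 lie left of 0 in all 3 projections, and only Ncan and Hapln4 lie right of 0, of which Ncan in PL-NAc turns to -0.0074 when centred on the median gene.

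Brevican, the short lectican of adult brain matrix, was the lectican whose decrease was measured best. Its mean normalized count was 1305 for PL-NAc, 1976 for PL-BLA and 1942 for PL-VTA in the authors' deposited tables. The log2 fold change was -1.57 (SE 0.09), -0.72 (SE 0.10) and -0.90 (SE 0.17) in the same order in the authors' deposited tables, with adjusted p of 2.8e-69, 4.7e-11 and 3.4e-06 (DESeq2). As a share of Input, Bcan stood at 33.6% in PL-NAc (95% interval 29.9% to 37.9%), 60.5% in PL-BLA (52.5% to 69.7%) and 53.7% in PL-VTA (42.6% to 67.7%). The PL-NAc interval does not overlap that of PL-BLA or PL-VTA.

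Versican, a large lectican found at nodes of Ranvier and in the loose matrix, was lower in every projection but at few counts. It was -1.37 (SE 0.43) in PL-NAc, -1.61 (SE 0.40) in PL-BLA and -1.20 (SE 0.45) in PL-VTA in the authors' deposited tables, with adjusted p of 0.00407, 0.000217 and 0.0384 (DESeq2). The PL-VTA call was lost at a threshold of 0.01, and also, with an adjusted p of 0.0562 (Benjamini-Hochberg on the DESeq2 p), when every gene with a p was counted.

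Aggrecan, the proteoglycan that defines dense nets, was lower in PL-NAc at -1.72 (SE 0.42), or 30.4% of Input (95% interval 17.1% to 54.0%), and adjusted p = 0.000201 (DESeq2) in the authors' deposited table. In PL-BLA it was -0.66 (SE 0.41) with an adjusted p of 0.205, and in PL-VTA -0.95 (SE 0.42) with an adjusted p of 0.0907, neither of them called, in the authors' deposited tables (DESeq2). The 95% interval was 36.1% to 111% of Input for PL-BLA, on both sides of no change, and 29.3% to 91.3% for PL-VTA, below it before adjustment.

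Neurocan, a lectican abundant in developing and adult brain, was the one lectican not lower in any projection. It was 0.05 (SE 0.09) in PL-NAc, 0.22 (SE 0.09) in PL-BLA and 0.25 (SE 0.17) in PL-VTA in the authors' deposited tables. Only PL-BLA was called, at an adjusted p of 0.0467 (DESeq2), or 117% of Input (95% interval 103% to 133%). That call was lost at a stricter threshold, when p was adjusted over every gene with a p (adjusted p 0.0616), and when fold changes were centred on the median gene (log2 0.17, adjusted p 0.152). For the other 2 projections the adjusted p was 0.703 and 0.348 (DESeq2).

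Hapln2, the link protein of nodes of Ranvier made by oligodendrocytes, had the lowest fold change of the 9 for every projection, although its intervals overlapped those of Ptprz1. It was -2.36 (SE 0.22) in PL-NAc, -1.72 (SE 0.20) in PL-BLA and -1.75 (SE 0.30) in PL-VTA in the authors' deposited tables, that is 19.5%, 30.3% and 29.7% of Input. The adjusted p were 9.4e-25, 7.8e-16 and 1.8e-07 (DESeq2). In PL-NAc only 1.33% of tested genes had a lower fold change.

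Hapln1, the cartilage-type link protein also found in nets, was lower to a like extent in all 3 projections. It was -1.99 (SE 0.27) in PL-NAc, -1.62 (SE 0.26) in PL-BLA and -1.64 (SE 0.39) in PL-VTA in the authors' deposited tables. The IP stood at 25.1%, 32.5% and 32.1% of Input, and the 95% intervals of the 3 overlap.

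Hapln4, a link protein made by neurons, went the other way in 1 projection. It was 0.58 (SE 0.07) in PL-BLA, which with its 95% interval is 135% to 166% of Input, and adjusted p = 9.7e-14 (DESeq2) in the authors' deposited table. It was 0.10 (SE 0.07) in PL-NAc and 0.33 (SE 0.17) in PL-VTA, adjusted p = 0.246 and 0.171 (DESeq2) in the authors' deposited tables, and was not called in either. In PL-BLA 91.9% of tested genes had a lower fold change than Hapln4.

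Tnr, the trimeric glycoprotein that joins lecticans to each other, was called in no projection. It was -0.32 (SE 0.18) in PL-NAc, -0.02 (SE 0.17) in PL-BLA and -0.05 (SE 0.29) in PL-VTA in the authors' deposited tables, with adjusted p of 0.155, 0.934 and 0.934 (DESeq2). The 95% intervals run from 62.5% to 103%, 78.2% to 124% and 64.7% to 144% of Input, so moderate changes in either direction are within the error for PL-VTA.

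Ptprz1, whose secreted splice form is phosphacan, was among the most depleted members at every site. It was -2.15 (SE 0.18) in PL-NAc, -1.67 (SE 0.16) in PL-BLA and -1.56 (SE 0.27) in PL-VTA in the authors' deposited tables, or 22.6%, 31.4% and 33.9% of Input. The adjusted p were 2.4e-31, 8.1e-23 and 1.5e-07 (DESeq2). Counts per gene do not separate the receptor from its secreted form, nor the secreted from the membrane-anchored form of brevican.

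Set side by side, neighbours on the chromosome had fold changes of the same sign. Ncan and Hapln4, 2222 bases apart, were the pair with positive values in all 3 projections, although only PL-BLA was called for either and Ncan in PL-NAc turned to -0.0074 under centring on the median gene. Bcan and Hapln2 were both lower in all 3, with Hapln2 further from 0 each time. Vcan and Hapln1 were also both lower in all 3. Acan and Hapln3 had negative values throughout, but Hapln3, at mean counts of 5.34 to 9.78, was called nowhere, with -0.82 (SE 0.44), -0.28 (SE 0.40) and -0.06 (SE 0.42) in PL-NAc, PL-BLA and PL-VTA in the authors' deposited tables. With 4 pairs this is a description with no test.

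**Figure D3:**
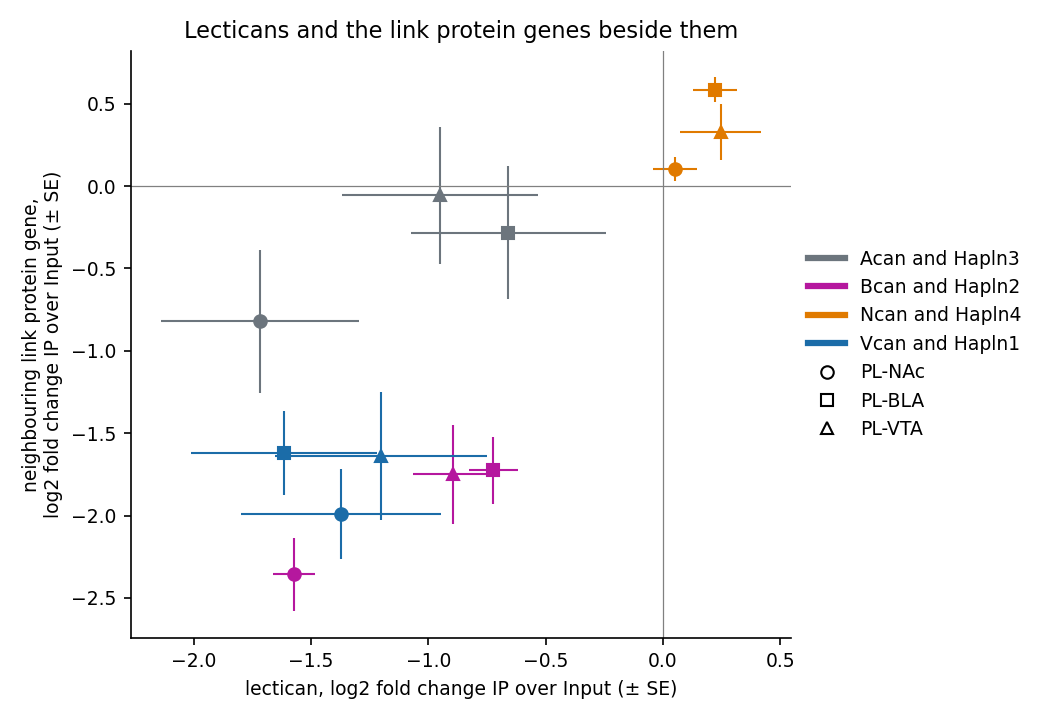
Log2 fold change of IP over Input of each lectican (horizontal axis) against the link protein gene next to it (vertical axis), with SE bars; colours are gene pairs and symbols are projections. Ncan and Hapln4 lie in the upper right in all 3 projections (Ncan in PL-NAc turns to -0.0074 when centred on the median gene), and the pairs Bcan with Hapln2 and Vcan with Hapln1 lie in the lower left.

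Most markers of glia, which are known to make several of these components, were lower in the IP like Bcan, Vcan, Hapln1, Hapln2 and Ptprz1 and unlike Ncan, Hapln4 and Tnr. For PL-NAc, all 11 astrocyte markers were lower in the IP (median -2.23, range -3.32 to -0.78), 10 of 11 in PL-BLA (median -1.43) and 11 of 11 in PL-VTA (median -1.48), and none was called higher, in the authors' deposited tables. The exception in PL-BLA was Aldh1l1, at 0.23 (SE 0.11), with an unadjusted p of 0.0311 and an adjusted p of 0.0711 (DESeq2). Oligodendrocyte precursor markers were lower in 7 of 7, 7 of 7 and 6 of 7 cases, with medians of -2.04, -1.42 and -1.49. That list leaves out Cspg4, also a marker of these precursors, which was placed among the other net components below. Cspg4 went the other way, at 0.46, 1.02 and 0.72, and was called higher for PL-BLA, in the authors' deposited tables. Oligodendrocyte markers were lower in 11 of 11 in each, with medians of -3.16, -2.41 and -2.43. No marker of any list was at a mean of 0. Summed over each list, the computed IP level was 32.05%, 50.7% and 41.3% of Input for astrocytes, 12.8%, 21.9% and 23.8% for precursors and 16.7%, 25.1% and 24.0% for oligodendrocytes. The astrocyte enzyme Aldoc, the most abundant of its list, was -1.59 (SE 0.06), -0.80 (SE 0.15) and -1.11 (SE 0.14) in the authors' deposited tables. Bcan was at -1.57, -0.72 and -0.90, but Aldoc is only 1 of 11 astrocyte markers. These ran from -3.32 to -0.78 in PL-NAc, -2.26 to 0.23 in PL-BLA and -2.61 to -0.66 in PL-VTA. Olig1, a transcription factor of the oligodendrocyte lineage, was -3.55, -2.64 and -2.52, and Mbp, a myelin protein, -2.73, -2.53 and -2.43, the most abundant of their lists in the authors' deposited tables. Abundant genes weigh most in the sums: in PL-NAc Olig1 had a mean count of 1676, and the next precursor marker, Olig2, 317. Olig1 was also the lowest precursor marker in each projection, while the highest was at -1.67, -0.99 and -0.78. The part of these cells in the members' values was not tested.

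Markers of inhibitory neurons, among them the net-bearing parvalbumin cells, were lower in 12 of 12 cases in PL-NAc and PL-BLA and in 8 of 12 in PL-VTA, with medians of -1.53, -1.34 and -0.91, in the authors' deposited tables. Pvalb, parvalbumin, was -3.48 (SE 0.14), -3.02 (SE 0.14) and -2.65 (SE 0.21) in the authors' deposited tables, further from 0 than any of the 9 members. Gad1, the GABA-making enzyme and most abundant of that list, was -1.24, -0.70 and -0.63 in the authors' deposited tables. Microglial markers were lower in 7 of 7 in each projection, and endothelial and mural markers in 5, 6 and 3 of 6, in the authors' deposited tables. Beside these counts stand 21.7%, 20.2% and 10.5% lower over all tested genes. That share too was smallest in PL-VTA, which had 2 libraries of either kind.

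**Figure D4:**
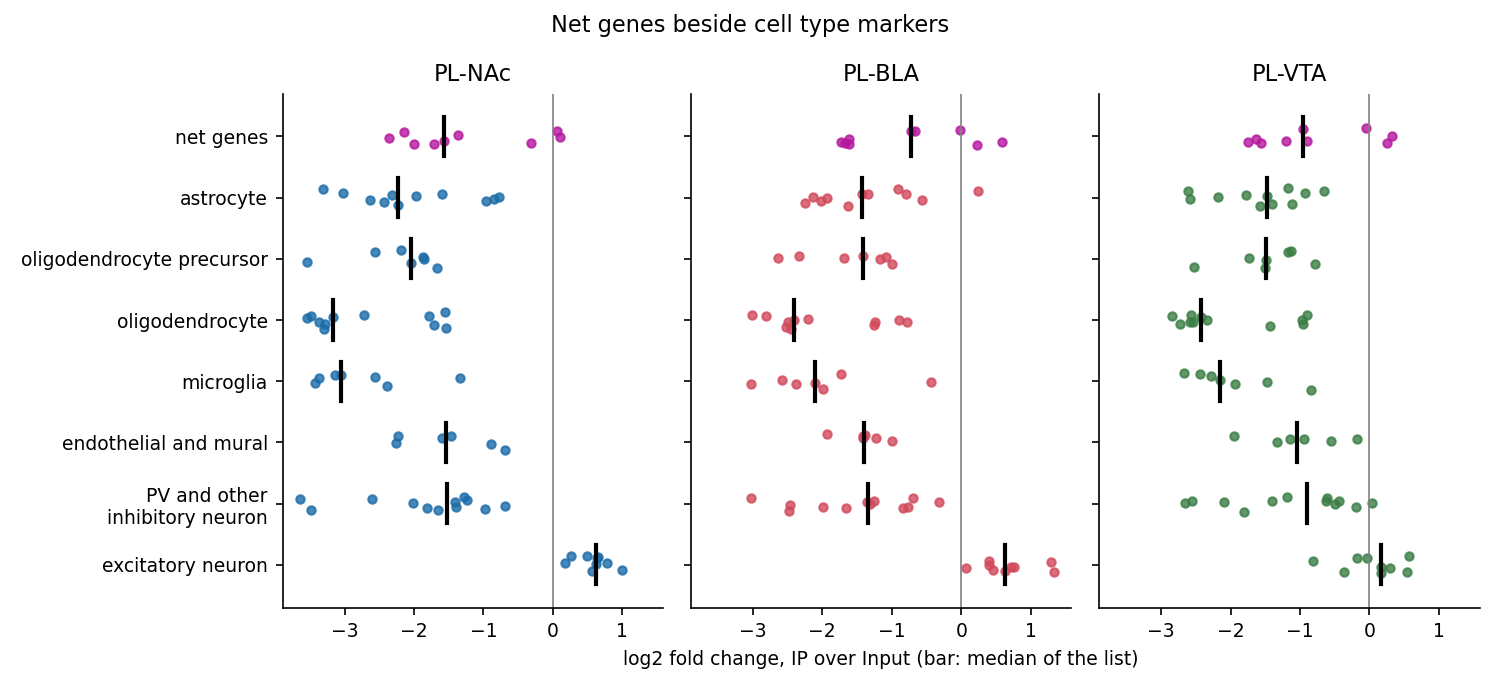
Log2 fold change of IP over Input of the 9 net genes and of the marker genes of 7 cell type lists, 1 point per gene with a bar at the median of each list, by projection. The net genes spread over both sides of 0, with medians of -1.57, -0.72 and -0.95, while every oligodendrocyte and microglial marker lies below 0.

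Enrichment of each member was compared between projections by a two-sided Wald z on the difference of the deposited fold changes, with p adjusted over all genes tested in both tables. For PL-NAc minus PL-BLA, 2 of the 9 differed, against 1.55% of 17444 genes (1.02% with PL-NAc lower and 0.527% with PL-NAc higher). Bcan was lower in PL-NAc by -0.85 (SE 0.14, 95% interval -1.11 to -0.58), a 1.80-fold difference with an adjusted p of 4.0e-07 (Wald z on DESeq2 values). Hapln4 was lower in PL-NAc by -0.48 (SE 0.10, 95% interval -0.68 to -0.28), a 1.40-fold difference with an adjusted p of 0.000723 (Wald z on DESeq2 values). The same difference was lower in PL-NAc for 7 of 11 astrocyte, 2 of 7 precursor and 6 of 11 oligodendrocyte markers, with medians of -0.69, -0.77 and -0.71. It was lower for 3 of 12 inhibitory and 1 of 9 excitatory neuron markers, with medians of -0.37 and -0.01. Of the microglial markers 2 of 7 were lower in PL-NAc, and of the endothelial and mural markers 0 of 6, with medians of -0.83 and -0.26. Their part in the 2 differences was not tested.

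For PL-NAc minus PL-VTA, 1 of the 9 differed, against 3.36% of 15432 genes (1.94% with PL-NAc lower and 1.43% higher). It was Bcan again, at -0.68 (SE 0.19, 95% interval -1.05 to -0.30) with an adjusted p of 0.0169 (Wald z on DESeq2 values), a call that was lost at a threshold of 0.01. PL-NAc is common to these 2 comparisons, so they are not independent. Here 5 of 11 astrocyte, 2 of 7 precursor, 4 of 11 oligodendrocyte and 4 of 12 inhibitory neuron markers were lower in PL-NAc, with medians of -0.58, -0.71, -0.65 and -0.72. Of the excitatory neuron markers 4 of 9 were higher in PL-NAc, with a median of 0.46. None of the 7 microglial or 6 endothelial and mural markers passed, though their medians were -0.90 and -0.58. Their part in the Bcan difference was not tested.

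For PL-BLA minus PL-VTA none of the 9 differed, against 4.61% of 15431 genes (2.27% with PL-BLA lower and 2.34% higher), and the count at an unadjusted p under 0.05 was 0 (Wald z on DESeq2 values). The intervals show what could have been missed. For Bcan the difference was 0.17 with a 95% interval of -0.22 to 0.56, for Hapln4 0.26 with -0.11 to 0.62, and for Ncan -0.02 with -0.41 to 0.36. For Acan it was 0.29 with -0.86 to 1.45, and for Vcan -0.41 with -1.59 to 0.76, which leaves room for more than a 2-fold difference.

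The other members did not pass in any pair. Hapln2 was -0.63 (SE 0.30) lower in PL-NAc than in PL-BLA, with an unadjusted p of 0.0365 and an adjusted p of 0.499 (Wald z on DESeq2 values). Ptprz1 was -0.48 (SE 0.24), with adjusted p of 0.572, and Acan -1.06 (SE 0.59), with adjusted p of 0.686 (Wald z on DESeq2 values). Vcan went the other way, at 0.24 (SE 0.58).

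**Figure D5:**
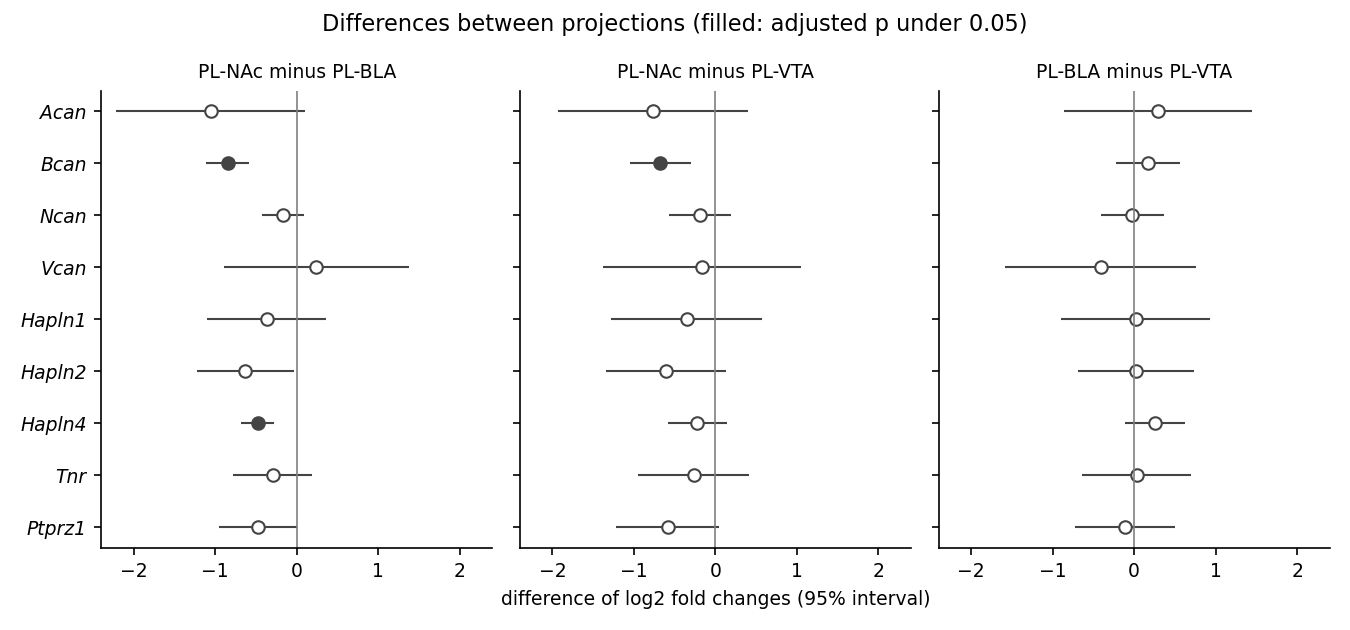
Difference of the log2 fold changes between 2 projections for each member, with its 95% interval; filled symbols passed at an adjusted p under 0.05. Bcan and Hapln4 pass in PL-NAc minus PL-BLA, Bcan in PL-NAc minus PL-VTA and none in PL-BLA minus PL-VTA.

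The genes with the fold changes most like 3 of the members were found by Euclidean distance over the 3 projections among 11863 genes with a mean of at least 50. For Bcan these were Phkg1 at a distance of 0.055, Pla2g7 at 0.072 and Ppm1j at 0.086 on the log2 scale. For Acan they were Naprt at 0.092, Sbno2 at 0.145 and Phkg1 at 0.180. For Hapln4 they were Rusc2 at 0.031, Itpkc at 0.063 and 3110002H16Rik at 0.080. Of the 11863 genes, 198 lay within 0.25 of Hapln4, 27 of Bcan and 14 of Acan, with 3 points per gene. Acan, itself below that mean, had SEs of 0.42, 0.41 and 0.42, and Bcan had SEs of 0.09, 0.10 and 0.17. These are larger than the distances given for them, and the SEs of Hapln4 (0.07, 0.07 and 0.17) are of like size to its distances. Which genes lie nearest is therefore within the error.

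Genes of the rest of the net machinery were found on both sides of 0. Of 11 other net and matrix components, 1 was lower and 2 higher in PL-NAc, and none lower and 3 higher in PL-BLA, in the authors' deposited tables. These counts stand beside 21.7% lower and 21.4% higher of all genes for PL-NAc and 20.2% and 20.8% for PL-BLA, so they are no more than the background apart from 3 of 11 higher in PL-BLA, which is near it. In PL-VTA none of the 8 tested was called, 1 of them at an unadjusted p under 0.05 (DESeq2). Nptx2, a secreted pentraxin of excitatory synapses, was 0.96 (SE 0.09) in PL-NAc and 1.56 (SE 0.10) in PL-BLA in the authors' deposited tables. The hyaluronan receptor Cd44 was 1.38 (SE 0.34) and 1.19 (SE 0.31), both called, and for PL-VTA -0.23 (SE 0.45), not called, in the authors' deposited tables. The guidance factor Sema3a, which nets bind, was called for PL-NAc at -0.57 (SE 0.20), beside -0.07 (SE 0.20) and -0.05 (SE 0.32) for PL-BLA and PL-VTA, in the authors' deposited tables. The proteoglycan Cspg4 was called for PL-BLA at 1.02 (SE 0.25), beside 0.46 (SE 0.26) for PL-NAc and 0.72 (SE 0.39) for PL-VTA, in the authors' deposited tables. Has1, Has2 and Has3, which make hyaluronan, were called nowhere, Has2 and Has3 having no adjusted p for PL-VTA, and had mean counts of 1.89 to 36.7 in the authors' deposited tables.

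Enzymes that build chondroitin sulfate were called in both directions. Of 21 tested of 22, 7 were lower and 3 higher in PL-NAc, 7 and 4 in PL-BLA, and 3 and 3 in PL-VTA, with medians of -0.07, 0.02 and -0.03, in the authors' deposited tables. Over all genes 21.7%, 20.2% and 10.5% were lower and 21.4%, 20.8% and 11.0% higher, so the higher counts and both PL-VTA counts are near or below the background. Fam20b, the xylose kinase of the linker region, was lower in each, at -0.77 (SE 0.09), -0.84 (SE 0.09) and -0.61 (SE 0.16) in the authors' deposited tables. B3gat3, which adds the glucuronic acid of the linker, was also lower in each, at -0.49 (SE 0.08), -0.50 (SE 0.09) and -0.58 (SE 0.15) in the authors' deposited tables. Ust, a uronyl sulfotransferase, was -1.29 (SE 0.17) and -1.07 (SE 0.17), both called, and for PL-VTA -0.03 (SE 0.24), not called, in the authors' deposited tables. The polymerizing protein Chpf was higher in each, at 0.18 (SE 0.07), 0.35 (SE 0.09) and 0.55 (SE 0.15) in the authors' deposited tables. The linker enzyme B4galt7 was called for PL-NAc and PL-BLA, at 0.48 (SE 0.11) and 0.32 (SE 0.12), and was 0.31 (SE 0.20) for PL-VTA, in the authors' deposited tables. The sulfotransferase Chst12 was called for PL-NAc and PL-VTA, at 0.37 (SE 0.12) and 0.70 (SE 0.20), and was 0.26 (SE 0.12) for PL-BLA, in the authors' deposited tables. Chsy3, another polymerizing enzyme, was called for PL-BLA at 0.65 (SE 0.17), beside 0.33 (SE 0.17) for PL-NAc and 0.01 (SE 0.30) for PL-VTA, in the authors' deposited tables. Chst15, which makes the doubly sulfated E unit, was called for PL-VTA at 1.08 (SE 0.18), beside 0.14 (SE 0.11) for PL-NAc and 0.08 (SE 0.11) for PL-BLA, in the authors' deposited tables.

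Matrix proteases, their inhibitors and hyaluronan-degrading genes had 8 lower and 3 higher of 20 tested in PL-NAc, 5 and 3 of 20 in PL-BLA, and 3 and 1 of 18 in PL-VTA, in the authors' deposited tables. Beside the shares over all genes (21.7%, 20.2% and 10.5% lower and 21.4%, 20.8% and 11.0% higher), the lower count for PL-NAc is above the background and the others are near or below it. The metalloprotease inhibitors went both ways. Timp4 was -2.68 (SE 0.18), -2.35 (SE 0.18) and -2.04 (SE 0.27), while Timp2 was 0.52 (SE 0.07), 0.62 (SE 0.07) and 0.88 (SE 0.13), in the authors' deposited tables. Timp3 was lower in each, at -1.91 (SE 0.18), -1.45 (SE 0.17) and -1.61 (SE 0.24), and so was Ctss, a lysosomal protease, at -2.34 (SE 0.19), -1.55 (SE 0.18) and -1.47 (SE 0.28), in the authors' deposited tables. The plasminogen activator Plat was 0.54 (SE 0.12) and 0.43 (SE 0.14), both called, and for PL-VTA 0.19 (SE 0.22), not called, in the authors' deposited tables.

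Receptors and ligands of net components had positive medians. Of 13, 8 were higher and 4 lower in PL-NAc, 8 and 1 in PL-BLA, and 5 and 3 in PL-VTA, with medians of 0.32, 0.48 and 0.25, in the authors' deposited tables. Over all genes 21.4%, 20.8% and 11.0% were higher and 21.7%, 20.2% and 10.5% lower. Ptprf, a receptor phosphatase of the family that binds chondroitin sulfate, was 1.01 (SE 0.10), 1.06 (SE 0.09) and 0.92 (SE 0.17) in the authors' deposited tables. The adhesion molecules L1cam, at 0.84 (SE 0.09), 0.94 (SE 0.10) and 0.82 (SE 0.16), and Nrcam, at 0.58 (SE 0.08), 0.75 (SE 0.07) and 0.77 (SE 0.15), were also higher in each in the authors' deposited tables. The Ptprz1 ligand Mdk, midkine, was -2.49 (SE 0.34), -2.80 (SE 0.34) and -2.16 (SE 0.42), and its relative Ptn, pleiotrophin, was called for PL-NAc and PL-VTA at -0.40 (SE 0.08) and -0.64 (SE 0.16), beside 0.04 (SE 0.08) for PL-BLA, in the authors' deposited tables.

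A few of these genes also differed between projections by the Wald z. Nptx2 stood lower in PL-VTA, where it was -0.55 (SE 0.24) and uncalled in the authors' deposited table, than in PL-NAc by 1.51 (SE 0.26, adjusted p 7.8e-07) and than in PL-BLA by 2.11 (SE 0.26, adjusted p 2.4e-13). Chst15 was higher in PL-VTA than in PL-NAc and PL-BLA, with differences of -0.94 (SE 0.21) for PL-NAc minus PL-VTA and -0.998 (SE 0.21) for PL-BLA minus PL-VTA. Ust differed in the same sense, at -1.25 (SE 0.30) and -1.04 (SE 0.29). Between PL-NAc and PL-BLA, Adamts4, a protease that cuts lecticans, differed by -0.94 (SE 0.28) with an adjusted p of 0.0451 (Wald z on DESeq2 values). Nptx2 also differed there, by -0.60 (SE 0.14). These genes were named after their values were seen, from among those that passed this test.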

How the data were processed

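RNA was profiled in 16 libraries, IP and Input of 3 projections. STAR 2.3, featureCounts and DESeq2 are listed, with mm10 and GRCm38 as builds, per the submitters' processing notes. The sources used here do not give other versions, the annotation, filters, strand setting or model formula. The mean signal, a mean of normalized counts, the log2 fold change with its SE, the Wald score, the p-value and the adjusted p were deposited by the authors, per the file headers. Recomputing the score, the p-value and its Benjamini-Hochberg adjustment gave the authors' values. The genes with the lowest means had log2 fold changes of at most 0.046 in size, so the authors' deposited fold changes appear shrunken toward 0 and understate changes of genes with few counts. Rows without a symbol held 0.227% to 0.240% of the mean counts.

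Differences between projections were computed in Python 3.11.15 with scipy 1.17.1, as a Wald z with the root of the summed squared SEs, adjusted over genes with an adjusted p in both tables. On simulated data this recovered 77.0%, 57.5% and 63.0% of 200 genes changed by 1 on the log2 scale for PL-NAc minus PL-BLA, PL-NAc minus PL-VTA and PL-BLA minus PL-VTA (17444, 15432 and 15431 genes). The changed genes were drawn from those of mean 50 or more in both projections, so Acan and Vcan are not covered. The simulated noise was drawn with the deposited SEs, so the recovery is no check of those SEs. Intervals are 95% normal intervals from the SE. Members and lists were chosen with earlier results of these data known. Named were all members, at most 2 called genes in each direction per list and projection, the nearest 3 genes by pattern for Acan, Bcan and Hapln4, and of each marker list the median and the most abundant gene. Pvalb, Aldh1l1, Has1 to Has3 and genes that differed between projections were named beyond that rule. Of 140 list entries 139 matched a symbol; Cemip2 stood as Tmem2, on the same list. Alternatives were a threshold of 0.01, adjustment only over genes of mean 50 or more, adjustment over every gene with a p, and centring on the median of those genes.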

Additional observations from a re-analysis of the deposited data

Results flagged for a closer look

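Bcan differed between PL-NAc and PL-BLA by -0.85 on the log2 scale, and between PL-NAc and PL-VTA by -0.68, each by a test of the difference itself. Hapln4 differed between PL-NAc and PL-BLA by -0.48 by the same test. In all 3 cases the IP of PL-NAc was the lower.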

How the results depend on the processing

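Of 27 member values for IP against Input, 3 changed call or sign under some alternative, and of 27 differences between projections 1 did. Ncan in PL-NAc turned from 0.05 to -0.0074 when fold changes were centred on the median of genes of mean 50 or more, and was not called either way. The counts of members called in each projection, both directions together, stayed within 1.5 times under every alternative; that of members differing between PL-NAc and PL-VTA went from 1 to 0 at a threshold of 0.01. Acan and Vcan, with means under 50, were not testable under that minimum. Adjusting only over genes of mean 50 or more gave 1 higher other net component and 5 lower remodelling genes in PL-NAc, 4 lower chondroitin sulfate enzymes in PL-BLA, and 2 and 0 lower receptors and ligands in PL-NAc and PL-BLA, since fewer genes were tested. A threshold of 0.01 also gave 2 lower receptors and ligands in PL-NAc. Few counts limit Acan and Vcan, and 2 libraries a group limit PL-VTA, where the median SE of such genes was 0.219 against 0.124 in PL-NAc and 0.129 in PL-BLA. No paired analysis was possible because the tables used hold no values per library, and leaving out single libraries was not run for the same reason.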
